A study of Homo sapiens with 30 samples.

Results

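The messenger RNAs of 10 genes of lipoprotein metabolism were followed across the series: APOA1, APOA2, APOA4, APOB, APOC1, APOC3, APOE, APOH and APOM, which encode apolipoproteins, and MTTP, which encodes the transfer protein that loads lipid onto apolipoprotein B. They were taken by symbol from the 60107 genes of the count table, and all 10 were found. Of these, 9 had enough counts to be tested at 6 h, at 24 h and in the transfection controls. APOA4 did not, and is given by its counts only.

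Apolipoproteins are the protein part of the particles that carry cholesterol and triglycerides in blood, and hepatocytes secrete most of them. Apolipoprotein B is the scaffold of very low density lipoprotein, and it is folded and lipidated in the endoplasmic reticulum with the microsomal triglyceride transfer protein made from MTTP. APOA1 and APOA2 encode the main proteins of high density lipoprotein, while the small exchangeable proteins from APOC1, APOC3 and APOE move between particles and set how they are processed and taken up. Apolipoprotein M carries sphingosine 1-phosphate on high density lipoprotein. APOH encodes beta-2-glycoprotein I, a plasma protein that binds anionic phospholipid.

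The cells were HepG2, a line derived from a human liver tumor that secretes apolipoproteins in culture. All cultures received a synthetic oligonucleotide with a cationic lipid, and 24 h later either Sorafenib, a multikinase inhibitor given in hepatocellular carcinoma, at 10 µM or its vehicle dimethyl sulfoxide (DMSO). RNA was collected 6 h after DMSO or Sorafenib in 4 groups, transfected with an inhibitor control (IC) or with the miR-200c-3p inhibitor (I200c). It was collected after 24 h in 6 groups, transfected with a mimic control (MC), the miR-222-5p mimic (M222) or the miR-512-3p mimic (M512). Each of the 10 groups had 3 biological replicates, 30 libraries in all. No group was left without a transfection, and the inhibitor and the mimics were not used at the same time point.

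The 3 microRNAs (miRNAs) are shown because each oligonucleotide blocks or supplies 1 of them; capitals mark the seed, bases 2 to 8 from the 5′ end, which pairs with target messenger RNAs. Sequences are from RefSeq (GRCh38.p14).
hsa-miR-200c-3p: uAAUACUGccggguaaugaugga
hsa-miR-222-5p: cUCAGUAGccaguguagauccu
hsa-miR-512-3p: aAGUGCUGucauagcugagguc
No seed was shared between them. The 3′ untranslated regions (UTRs) of the 10 genes, in GENCODE 44 on GRCh38, were searched on the transcript strand for the 7 bases that pair with each seed. The word CAGTATT, for miR-200c-3p, is in 16.4% of 18780 UTRs and in 1 of the 10, that of APOC3. CTACTGA, for miR-222-5p, is in 9.34% of the UTRs and in 1 of the 10, that of APOH. CAGCACT, for miR-512-3p, is in 19.9% of the UTRs and in 0 of the 10, from which nothing follows about the miRNA. The 2 matches are printed in their context, with the 7 bases in capitals.
APOC3, chr11:116832980-116832986, plus strand: cttaaaagggaCAGTATTctcagtgctct
APOH, chr17:66212046-66212052, minus strand: taaaaataaagCTACTGAatttattgccg
The APOC3 word starts at base 96 of a UTR of 188 bases. The APOH word starts at base 81 of a UTR of 100 bases and ends 13 bases before the end of the transcript. A match is a description of the letters and was not tested for binding.

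The genes lie in several places of the genome (GRCh38). APOA1 (ENSG00000118137, chr11:116835751-116837622), APOC3 (ENSG00000110245, chr11:116829706-116833072) and APOA4 (ENSG00000110244, chr11:116820700-116823304) are neighbors on chromosome 11. APOE (ENSG00000130203, chr19:44905791-44909393) and APOC1 (ENSG00000130208, chr19:44914247-44919349) are neighbors on chromosome 19. The other 5 are APOA2 (ENSG00000158874, chr1:161222292-161223631), APOB (ENSG00000084674, chr2:21001429-21044073), MTTP (ENSG00000138823, chr4:99564081-99623997), APOM (ENSG00000204444, chr6:31652416-31658210) and APOH (ENSG00000091583, chr17:66212033-66256525). The start of APOM overlaps the start of BAG6, on the opposite strand, which held 25892 counts over the 30 libraries against 13060 for APOM. These libraries read the 3′ ends, which lie outside that overlap. The antisense RNA APOA1-AS, across APOA1, held 6 counts against 188107.

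Total counts were 3940000 to 9660000 per library, so that 3 counts, taken as the limit that a count of 0 allows, correspond to 0.311 to 0.762 CPM (counts per 1000000 counts of a library). The hepatocyte genes ALB (2353 to 5135 CPM) and AFP (679 to 3207 CPM) were high in every library, as were SERPINA1, TF and FGB (125 CPM at least), while TTR was lower, at 25.8 to 106 CPM. Of 6 markers of other cells, DCN was at 0 in 30 libraries, PTPRC in 29, CDH5 in 22, PECAM1 in 13, CD14 in 8 and COL1A1 in 4. Their highest levels were 11.7 CPM for COL1A1, 3.04 CPM for PECAM1 and 2.05 CPM for CD14. Among the Sorafenib groups of 24 h, the library numbered 2 had the highest APOB level in each of the 3. In MC and M222 the libraries numbered 2 were also the shallowest of their groups, with 3941570 to 4939876 counts. Results were therefore also computed without the libraries numbered 2.

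APOB and APOA2 made up most of the apolipoprotein RNA in these cells. The 10 genes together took 0.486% to 1.28% of the counts of a library. Of these counts APOB held a median of 44.7% over libraries, APOA2 29.3%, APOA1 10.6%, APOH 7.87% and APOC1 5.89%. APOC3 (1.25%), APOE (0.985%), APOM (0.721%) and MTTP (0.586%) were much scarcer. Because each transcript gives 1 fragment in these 3′ libraries, levels are per transcript and are not divided by gene length. Over the 30 libraries the median level was 3860 CPM for APOB, 2390 CPM for APOA2, 813 CPM for APOA1, 641 CPM for APOH and 485 CPM for APOC1. It was 98.3 CPM for APOC3, 86.6 CPM for APOE, 57.1 CPM for APOM and 45.0 CPM for MTTP. APOA4, an intestinal apolipoprotein in the main, had 24 counts at most and none in 11 libraries.

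**Figure D1:**
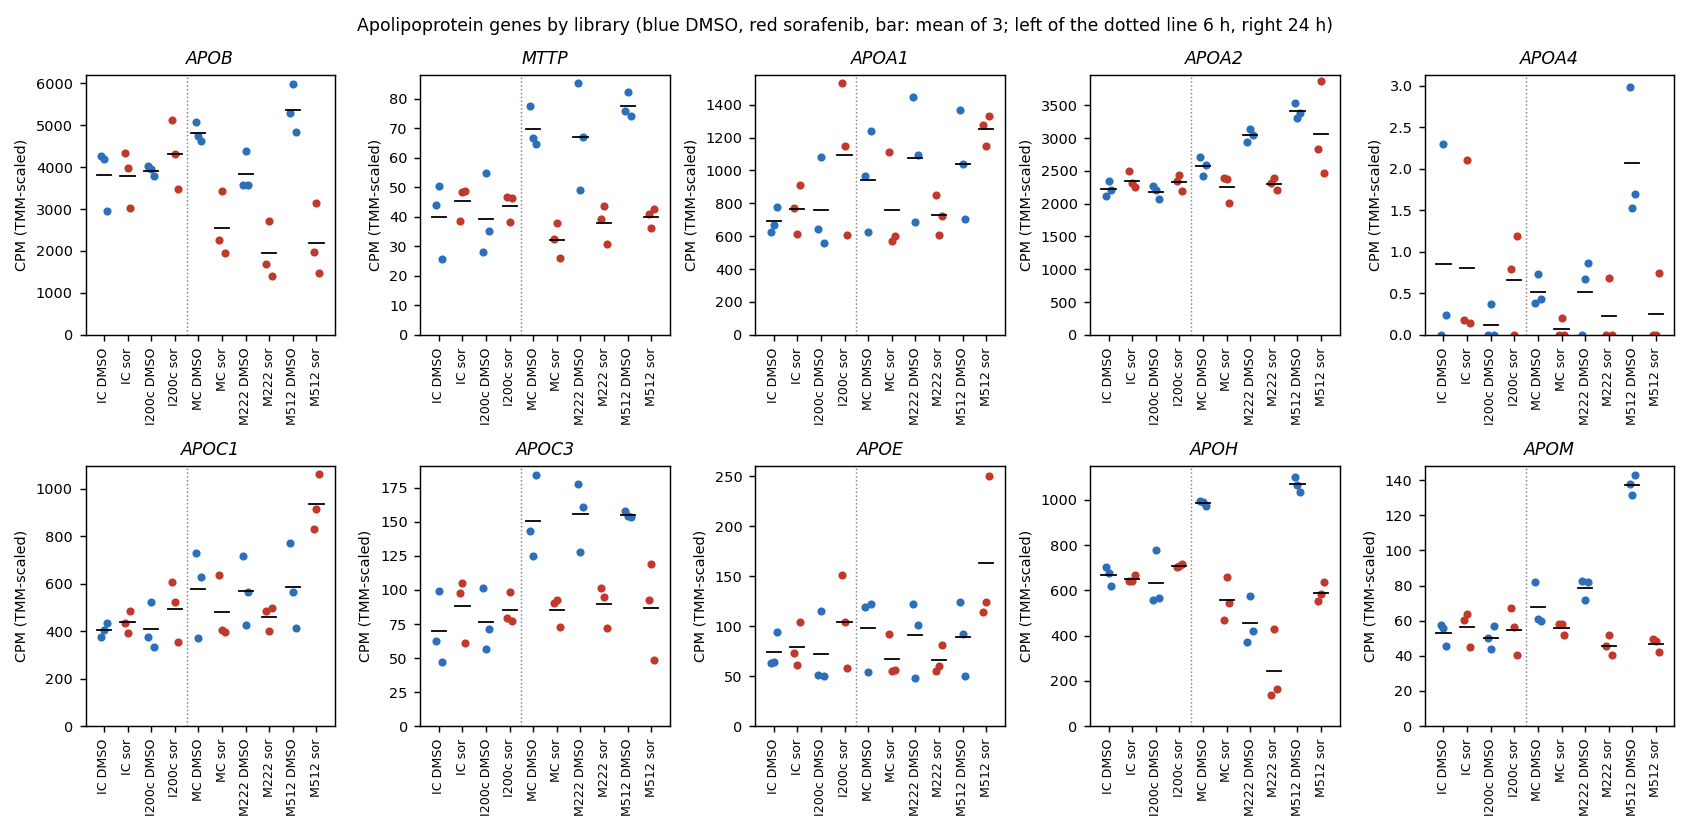
Level of each of the 10 genes in every library, in CPM scaled by the trimmed mean of M values (TMM) over all 30 libraries (vertical axis, from 0). Points are single libraries, blue with DMSO and red with Sorafenib, bars are means of 3, and the dotted line parts 6 h from 24 h. APOM stood at 132 to 143 CPM in M512 with DMSO and at 40.4 to 82.7 CPM in every other library, and APOH was lowest in the M222 groups of 24 h.

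The order of the group means differed between genes. For APOA2, APOB, APOH, APOM and MTTP the highest mean was that of M512 with DMSO, for APOA1, APOC1 and APOE that of M512 with Sorafenib, and for APOC3 that of M222 with DMSO. From the highest to the lowest group mean the ratio was 4.39 for APOH, 3.00 for APOM, 2.76 for APOB, 2.47 for APOE, 2.42 for MTTP and 2.31 for APOC1. It was smaller for APOC3 (2.23), APOA1 (1.81) and APOA2 (1.56). Most neighbors in these orders had overlapping libraries: of 9 steps, 3 were free of overlap for APOH, 1 each for APOA2, APOC1, APOC3, APOM and MTTP, and 0 for APOA1, APOB and APOE. For APOM the step was from M512 with DMSO (138 ± 5.78 CPM, SD, n = 3) to M222 with DMSO (78.8 ± 6.11). For APOC3 it parted the 3 DMSO groups of 24 h from the other 7 groups. For MTTP it came after the same 3 groups, but single libraries further down, such as 54.7 CPM in I200c with DMSO, reached above it.

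APOH steps were at the top of its order. Its mean was 1069 ± 33.6 CPM in M512 with DMSO, 988 ± 11.9 in MC with DMSO, 710 ± 5.70 in I200c with Sorafenib and 666 ± 42.5 in IC with DMSO, with no overlap from each to the next. The last of these steps was narrow (705 against 702 CPM), and a library of I200c with DMSO, a group further down, reached above it at 778 CPM. Below those groups, the remaining 6 ran down to 243 ± 163 CPM in M222 with Sorafenib without a further step.

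After 24 h of Sorafenib, APOB, MTTP, APOC3 and APOM fell in at least 1 transfection, and 0 of the 9 genes rose in any (1.8%, 2.82% and 5.34% of all 13244 genes tested rose in MC, M222 and M512). In the mimic control 1 of 9 tested genes was called lower (0.793% of all genes were), in M222 3 of 9 (1.56%) and in M512 4 of 9 (4.62%). An unadjusted p under 0.05, in either direction, was found for 4 of 9 in MC (16.9% of all genes), 6 of 9 in M222 (19.1%) and 7 of 9 in M512 (24.2%, with APOC1 and APOE higher and 5 genes lower). Without the libraries numbered 2, a choice made after the data were seen, the genes called were 3 in MC, 4 in M222 and 4 in M512. Of all 13914 genes tested in that fit, 600, 690 and 624 were called. With all libraries it was 344, 580 and 1319 of 13244. Calls are an adjusted p under 0.05 in edgeR's quasi-likelihood F test, with the Benjamini-Hochberg adjustment over all genes tested. The median log2 fold change of the 9 was -0.54 in MC, -0.79 in M222 and -0.83 in M512, against -0.01, -0.04 and -0.03 for all genes. In bulk RNA, fewer cells expressing a gene and less RNA of it per cell cannot be told apart.

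MTTP was the gene called in all 3 mimic transfections. In MC its level was 77.5, 66.6 and 64.7 CPM with DMSO and 32.6, 37.8 and 25.8 CPM with Sorafenib, and the groups did not overlap. The log2 fold change was -1.12 (SE 0.22, edgeR, adjusted p 0.00596), a 2.17-fold lower level. Without replicate 1 of MC with DMSO the adjusted p was 0.0503, and without replicate 3 of MC with Sorafenib it was 0.0807. In M222, MTTP stood at 85.2, 49.2 and 67.0 CPM with DMSO against 39.1, 43.6 and 30.6 CPM with Sorafenib (log2 -0.84, SE 0.22, edgeR adjusted p 0.0292). There the DMSO library of replicate 2 came close to the highest Sorafenib library. In M512 it was 75.8, 82.4 and 74.2 CPM with DMSO and 40.8, 36.1 and 42.7 CPM with Sorafenib (log2 -0.96, SE 0.22, edgeR adjusted p 0.00684), with a wide gap between the groups. The M512 call was kept in 6 of 6 fits that left out 1 library of the pair, and was lost without all libraries numbered 2 (adjusted p 0.0971).

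APOB had the highest median level over all libraries, although APOA2 had the higher mean in M512 with Sorafenib (3060 against 2200 CPM) and in M222 with Sorafenib (2305 against 1942 CPM). In M512 it stood at 5282, 5980 and 4833 CPM with DMSO and at 1977, 3153 and 1470 CPM with Sorafenib. Every Sorafenib library lay below every DMSO library (log2 -1.28, SE 0.26, 2.43-fold lower, edgeR, adjusted p 0.00228), and the call was kept in 6 of 6 fits without 1 library. In M222 the levels were 3577, 4391 and 3574 CPM with DMSO and 1697, 2719 and 1412 CPM with Sorafenib (log2 -0.99, SE 0.26, edgeR adjusted p 0.0262). Here too the groups were apart, but the call was kept in 1 of 6 fits without 1 library. In MC, where levels were 5067, 4735 and 4619 CPM with DMSO and 2253, 3437 and 1948 CPM with Sorafenib, the groups were also apart and the test was not passed (log2 -0.91, SE 0.26, edgeR adjusted p 0.0572). Values of pairs that did not pass are given where they set a call beside its counterpart, chosen after they were seen.

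APOM, the carrier of sphingosine 1-phosphate, showed the strongest response of the 9 genes to Sorafenib in M512. Its level was 138, 132 and 143 CPM with DMSO and 49.5, 48.4 and 42.5 CPM with Sorafenib, so the groups were far apart. The log2 fold change was -1.55 (SE 0.19, 2.93-fold lower, edgeR, adjusted p 1.36e-05), and the call was kept in 6 of 6 fits without 1 library. In M222 it went from 82.7, 71.8 and 81.9 CPM to 45.5, 51.8 and 40.4 CPM, again without overlap (log2 -0.79, SE 0.19, edgeR adjusted p 0.0171). In MC the libraries were at 82.2, 61.0 and 59.6 CPM with DMSO and at 58.1, 58.1 and 52.0 CPM with Sorafenib. The groups were barely apart there, and the test was not passed (log2 -0.27, SE 0.19, edgeR adjusted p 0.504). The Sorafenib levels of the 3 transfections lay close together, between 40.4 and 58.1 CPM, while the DMSO levels differed.

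The calls of M222 were lost in more of the fits without 1 library than 3 of the 4 calls of M512. In M222 all 3 calls (APOB, APOM and MTTP) were lost without replicate 1 or 3 of either group, with adjusted p up to 0.188, 0.137 and 0.204, and APOB also without replicate 2 of the DMSO group. Calls over all genes in M222 went from 580 to between 204 and 307 without replicate 1 or 3. The log2 fold changes without 1 library were -1.27 to -0.77 for APOB, -0.84 to -0.67 for APOM and -0.99 to -0.62 for MTTP. For M512 the calls of APOB, APOM and MTTP had adjusted p of at most 0.016, 0.000197 and 0.0438 when any 1 library was left out. The M512 call of APOC3 was kept in 1 of 6 such fits, with an edgeR adjusted p up to 0.137.

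APOC3, whose product slows the clearance of triglyceride-rich particles, had similar values in the 3 mimic transfections. In M512 it stood at 158, 154 and 153 CPM with DMSO and at 92.8, 119 and 48.9 CPM with Sorafenib (log2 -0.83, SE 0.25, edgeR, adjusted p 0.0337). The groups were apart, but the call was kept in 1 of 6 fits without 1 library, and without replicate 3 of the Sorafenib group the log2 fold change was -0.54 (adjusted p 0.137). In MC the levels were 143, 125 and 184 CPM with DMSO and 90.2, 92.7 and 73.0 CPM with Sorafenib (log2 -0.82, edgeR adjusted p 0.0781). In M222 they were 178, 128 and 161 CPM with DMSO and 102, 94.9 and 71.8 CPM with Sorafenib (log2 -0.80, edgeR adjusted p 0.0647). Neither of the latter passed, although no library overlapped.

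For APOH the Sorafenib groups were lower too, without a call. In MC it was 998, 991 and 975 CPM with DMSO and 467, 658 and 542 CPM with Sorafenib (log2 -0.83, edgeR, adjusted p 0.112). The M512 levels were 1103, 1068 and 1035 CPM with DMSO and 552, 583 and 637 CPM with Sorafenib (log2 -0.85, edgeR adjusted p 0.052). In both the DMSO libraries were close to each other and well above those with Sorafenib. In M222 the levels were 372, 576 and 422 CPM with DMSO and 136, 431 and 163 CPM with Sorafenib (log2 -0.92, edgeR, adjusted p 0.0615), and the groups overlapped.

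APOA1, APOA2, APOC1 and APOE passed the test in 0 of the 3 transfections. Their log2 fold changes were -0.54 (APOE) to -0.18 (APOA2) in MC, -0.57 (APOA1) to -0.31 (APOC1) in M222 and -0.15 (APOA2) to 0.87 (APOE) in M512. Whether they differed from the other genes in this was not tested. In M512, APOC1 was at 772, 565 and 415 CPM with DMSO and at 832, 913 and 1060 CPM with Sorafenib, above without overlap (log2 0.68, edgeR, adjusted p 0.0922). APOE was at 124, 91.8 and 49.7 CPM with DMSO and at 114, 124 and 250 CPM with Sorafenib, where 1 library set the mean (log2 0.87, edgeR adjusted p 0.131).

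**Figure D2:**
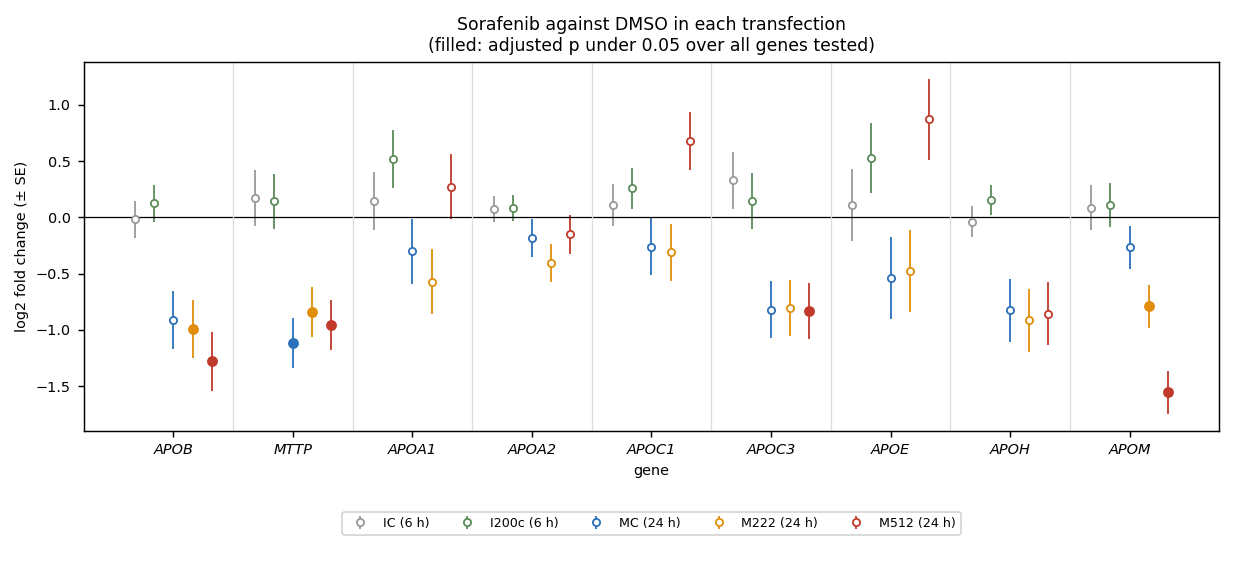
Log2 fold change of Sorafenib against DMSO (vertical axis) for the 9 tested genes in each of the 5 transfections, with bars of 1 SE; filled points are called. The 6 h points lie between -0.04 and 0.53, and those of MTTP, APOB, APOC3 and APOH at 24 h all lie between -0.80 and -1.28.

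Whether all libraries of a Sorafenib group lay below all of its DMSO group was counted as well. In MC this held for 6 of the 9 genes (APOA2, APOB, APOC3, APOH, APOM and MTTP), where 12.1% of all genes tested did so. In M222 it held for 5 (APOA2, APOB, APOC3, APOM and MTTP; 12.9%), and in M512 for 5 (APOB, APOC3, APOH, APOM and MTTP; 16.3%). APOC1 in M512 was the only one of the 9 to lie fully above (13.6% of all genes). APOB, APOC3, APOM and MTTP were in each of these 3 sets. Dividing by total counts in place of TMM moved the median log2 fold change of all genes to -0.12, -0.14 and -0.22 in MC, M222 and M512, so part of each fold change depends on the scaling.

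At 6 h no gene of the 9 was called under Sorafenib. In IC their log2 fold changes were -0.04 to 0.33 (0.0393% of all 12738 genes were called) and in I200c 0.08 to 0.53 (2.28%), with edgeR, and 0 of 9 had an unadjusted p under 0.05 in either (3.78% and 15.3% of all genes). APOB, for example, was at 4275, 4200 and 2957 CPM in IC with DMSO and at 4330, 3983 and 3022 CPM with Sorafenib, and the groups lay on top of each other. MTTP was at 43.8, 50.3 and 25.8 CPM in IC with DMSO and at 38.6, 48.2 and 48.8 CPM with Sorafenib.

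The difference between times was tested in the 2 transfection controls, IC at 6 h and MC at 24 h. All 9 interaction terms were below 0, from -0.29 (APOA2) to -1.32 (MTTP), with a median of -0.68 against -0.03 for all genes. Of the 9, 0 passed with edgeR (0.216% of 12500 genes did), 4 had an unadjusted p under 0.05 (13.7%), and 2 passed with DESeq2 (262 of 12500 genes did). MTTP had an edgeR adjusted p of 0.0989 and APOH one of 0.0853. Time and the kind of control oligonucleotide changed together here and cannot be told apart.

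The miR-512-3p mimic was compared with the mimic control to ask what it did to these genes with and without the drug. In DMSO, APOM was higher and was the 1 gene of the 9 called (0.634% of all 13244 genes were called in either direction, 0.264% higher). Its 138, 132 and 143 CPM stood against 82.2, 61.0 and 59.6 CPM in MC, every library above the control. The log2 fold change was 1.01 (SE 0.19, 2.01-fold higher, edgeR, adjusted p 0.00995). The call was kept in 3 of 6 fits without 1 library. It was lost without replicate 2 of MC (adjusted p 0.0564), replicate 3 of MC (0.107) or replicate 3 of M512 (0.074), and without all libraries numbered 2 (0.116), with log2 values of 0.94 to 0.99 in these fits. The APOM 3′ UTR, of 121 bases, holds none of the 3 seed words. APOA2 and APOH also lay fully above the control (11.1% of all genes did), and 2 of the 9 had an unadjusted p under 0.05 (10.5%).

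With Sorafenib the order of the APOM groups turned. Levels were 49.5, 48.4 and 42.5 CPM in M512 and 58.1, 58.1 and 52.0 CPM in MC, each M512 library below each MC library by a small margin (7.41% of all genes lay fully below). The log2 fold change was -0.28 (SE 0.19, edgeR, adjusted p 0.634), and averaged over DMSO and Sorafenib, a contrast added after the data were seen, it was 0.37 (SE 0.13, adjusted p 0.156; 0 of 9 genes were called in that contrast, and 2.67% of all genes). The interaction of M512 with Sorafenib was -1.29 (SE 0.27, edgeR adjusted p 0.179), while DESeq2 gave -1.25 with an adjusted p of 0.00411. In edgeR 0.00755% of all genes passed that interaction, and 0 of the 9 did; 3 of 9 had an unadjusted p under 0.05 (5.04%).

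**Figure D3:**
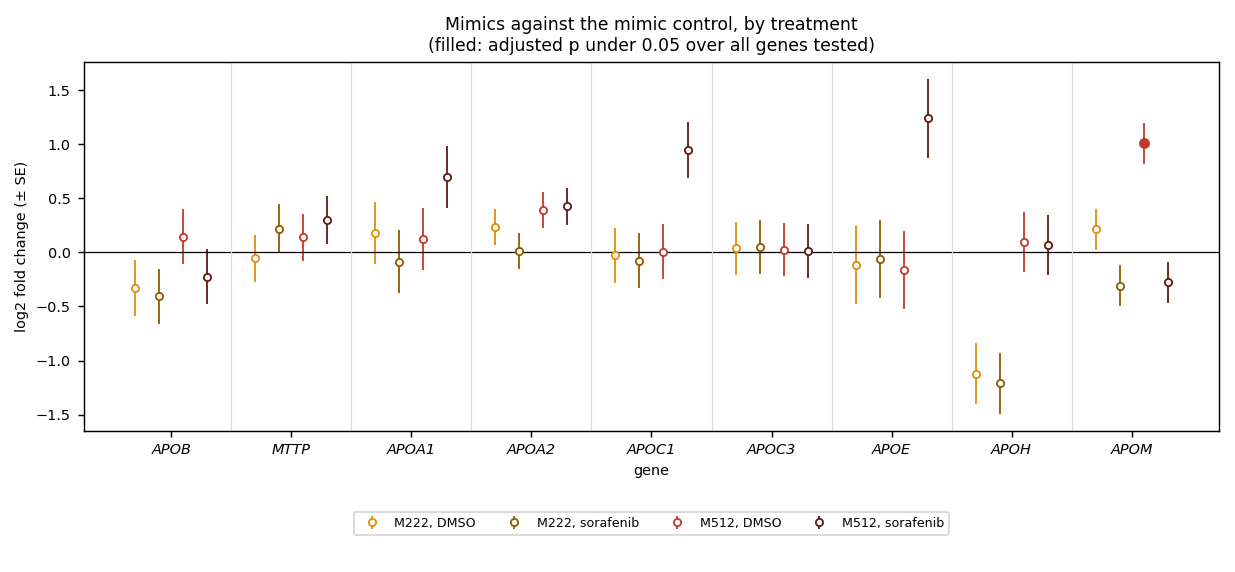
Log2 fold change of each mimic against the mimic control (vertical axis) for the 9 tested genes, with DMSO and with Sorafenib apart; bars are 1 SE and the filled point is called. APOM stands at 1.01 in M512 with DMSO and at -0.28 with Sorafenib, and APOH at -1.12 and -1.21 in M222.

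Under Sorafenib 4 other genes stood above the control in M512 in every library, and 0 of the 9 passed edgeR (0.355% of all genes did). These were APOA1, APOA2, APOC1 and APOE (6.49% of all genes lay fully above). APOE stood at 114, 124 and 250 CPM in M512 and at 91.8, 54.7 and 55.9 CPM in MC (log2 1.24, SE 0.37, edgeR, adjusted p 0.138). APOC1 stood at 832, 913 and 1060 CPM in M512 and at 638, 403 and 395 CPM in MC (log2 0.94, SE 0.26, edgeR adjusted p 0.113). APOA1, at 1274, 1147 and 1329 CPM against 1110, 572 and 599 CPM, had 1 control library close to the M512 libraries (log2 0.70, edgeR adjusted p 0.351). By unadjusted p 4 of 9 were under 0.05 (11.1% of all genes), and DESeq2 called 2 of 9 (224 of 13244 genes).

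APOA4 was detected most in M512 with DMSO. Its counts there were 24, 10 and 12, against 3, 3 and 3 in MC with DMSO and 0, 0 and 6 in M512 with Sorafenib. In IC replicate 2 held 2.30 CPM with DMSO and 2.11 CPM with Sorafenib, near the M512 levels of 1.52 to 2.99 CPM, so single libraries of other groups reached them.

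The miR-222-5p mimic was compared with the same control libraries, and APOH was the gene that stood out. With DMSO it was at 372, 576 and 422 CPM in M222 and at 998, 991 and 975 CPM in MC. With Sorafenib it was at 136, 431 and 163 CPM in M222 and at 467, 658 and 542 CPM in MC. Each M222 library was below each control library in both treatments, where 7.32% and 6.19% of all genes lay fully below. The log2 fold change was -1.12 with DMSO (SE 0.28, 2.17-fold lower, edgeR, adjusted p 0.242) and -1.21 with Sorafenib (SE 0.28, 2.31-fold lower, adjusted p 0.295), which are not calls. In both contrasts edgeR called 0% of the 13244 genes, and 1 of the 9 genes had an unadjusted p under 0.05 (5.56% and 6.04% of all genes), APOH (0.000524 and 0.000245).

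Other tests of the same APOH difference did pass. DESeq2 gave adjusted p of 0.0234 with DMSO and 0.017 with Sorafenib. Averaged over both treatments, the contrast added after the data were seen, the log2 fold change was -1.17 (SE 0.20, edgeR, adjusted p 0.00969), and APOH was the 1 of 9 called (0.483% of all genes). This call was kept in 12 of 12 fits without 1 library, with an adjusted p of 0.0433 at most. Without all libraries numbered 2, edgeR called APOH with DMSO (log2 -1.32, adjusted p 0.00603) and with Sorafenib (-1.77, 0.000208). That exclusion was chosen after the data were seen. It takes out the M222 libraries nearest to the control, at 576 CPM with DMSO and 431 CPM with Sorafenib. A larger difference without them is therefore not separate evidence. Without replicate 2 of M222 with Sorafenib alone, the library at 431 CPM, the Sorafenib contrast was -1.88 (edgeR adjusted p 0.000113). That was the 1 fit of 6 without 1 library in which the Sorafenib contrast was called, with log2 values of -1.88 to -0.90. The DMSO contrast was called in 0 of 6 such fits, with log2 values of -1.31 to -0.99. APOH is the 1 gene of the 10 with the miR-222-5p seed word in its 3′ UTR, as printed above, and whether that word has a part in the difference was not tested. The interaction of M222 with Sorafenib was called for 0 of the 9 genes (0% of all genes, and 0 of 9 at an unadjusted p under 0.05, where 1.96% of all genes were).

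The other genes were near the control level in M222. With DMSO their log2 fold changes were -0.33 (APOB) to 0.23 (APOA2), and with Sorafenib -0.41 (APOB) to 0.22 (MTTP). APOA2 lay fully above the control with DMSO (5.19% of all genes did), and APOB fully below. APOM lay fully below with Sorafenib.

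The miR-200c-3p inhibitor was compared with its own control at 6 h. No gene of the 9 was called with DMSO (0.0157% of 12738 genes) or with Sorafenib (0%), and 0 of 9 had an unadjusted p under 0.05 in either edgeR test (5.24% and 2.14% of all genes). The interaction of I200c with Sorafenib was called for 0 of 9 genes (0% of all genes) and was under an unadjusted p of 0.05 for 0 of 9 (3.24%). Log2 fold changes were -0.06 to 0.15 with DMSO and -0.04 to 0.53 with Sorafenib. APOC3, the gene with the miR-200c-3p seed word, was at 62.8, 99.0 and 47.0 CPM in IC and at 101, 57.0 and 71.4 CPM in I200c with DMSO (log2 0.15, SE 0.25, edgeR, adjusted p 0.991), with full overlap. APOH with Sorafenib was the 1 gene whose groups did not overlap, at 640, 643 and 668 CPM in IC and 705, 709 and 716 CPM in I200c (3.43% of all genes lay fully above).

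Replicates of one group differed in a way that several genes shared. Within groups, APOA1, APOC1 and APOE went up and down together: the correlation of their deviations from the group means, on the log2(CPM + 1) scale, was 0.995 for APOA1 with APOC1, 0.970 for APOA1 with APOE and 0.966 for APOC1 with APOE over the 12 libraries of 6 h. Over the 18 libraries of 24 h it was 0.917, 0.834 and 0.908. The median over all 36 pairs of genes was 0.222 at 6 h and 0.221 at 24 h. APOE and APOC1 are neighbors, and APOA1 is on another chromosome. The neighbor of APOA1, APOC3, had a correlation with it of -0.34 at 6 h and 0.30 at 24 h. Whether position has a part in these correlations was not tested. The next highest pairs at 24 h were APOA2 with APOB (0.763) and with APOC3 (0.738), which had 0.485 and 0.557 at 6 h. Those at 6 h were APOB with APOM (0.841) and APOH with MTTP (0.803), which had 0.447 and 0.101 at 24 h. Genes of one library share its depth and its preparation, so these values are descriptions.

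**Figure D4:**
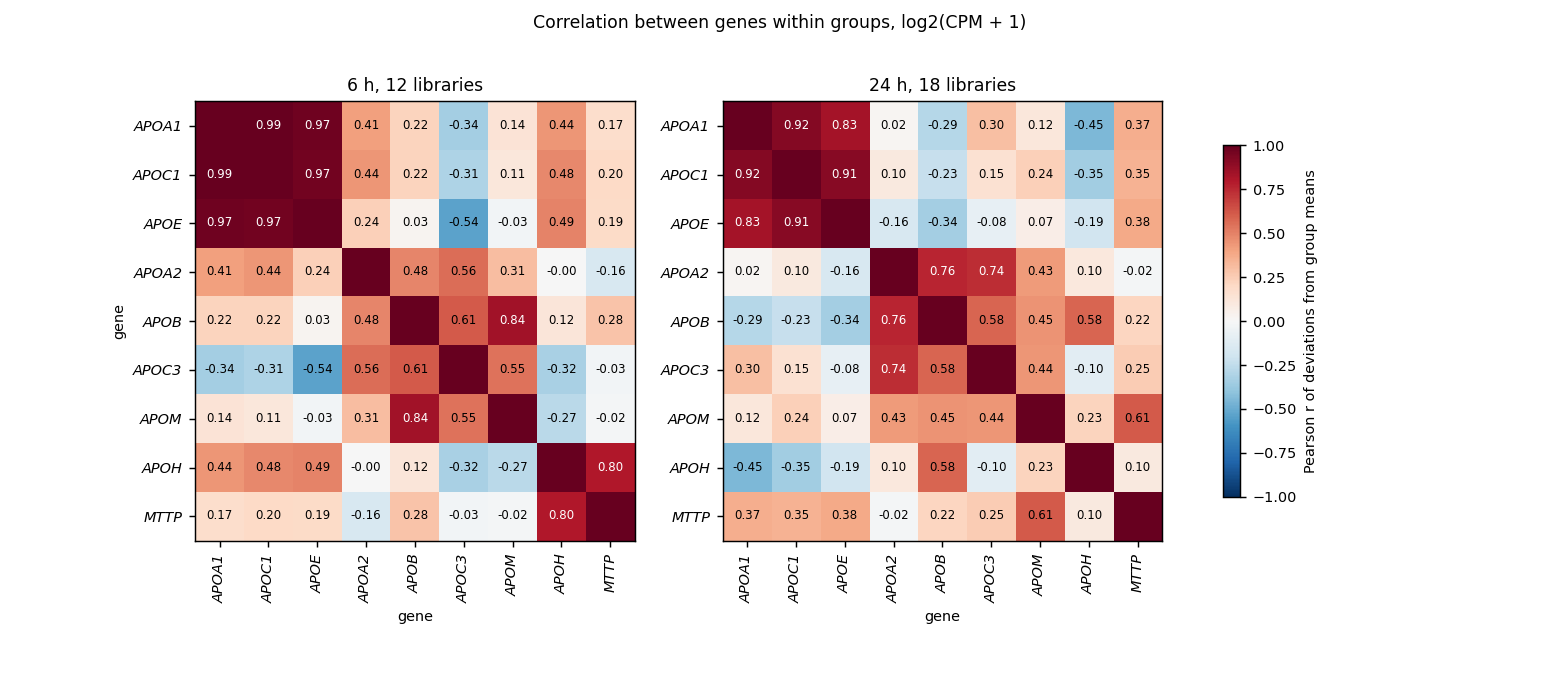
Pearson correlation between the 9 genes of their deviations from group means, on the log2(CPM + 1) scale, over the 12 libraries of 6 h (left) and the 18 of 24 h (right); color runs from -1 (blue) to 1 (red). APOA1, APOC1 and APOE form a block of 0.966 to 0.995 at 6 h and of 0.834 to 0.917 at 24 h.

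The deviations of this trio were set beside library depth and the base composition of 3′ UTRs. The mean of its deviations correlated with the log2 total count at 0.278 at 6 h and 0.761 at 24 h, and with the mitochondrial share of counts at 0.508 and -0.05. The 3′ UTRs of APOE (65.7% GC), APOA1 (64.9%) and APOC1 (56.9%) lie in the quintile of genes richest in GC (from 52.7% at 6 h and 52.8% at 24 h). Over the genes of that quintile, the median correlation with the trio was 0.328 at 6 h and 0.229 at 24 h, against -0.11 and -0.21 over the quintile poorest in GC. The 3′ UTR of APOC3 is also at 56.9% GC. Its correlations with APOA1, APOC1 and APOE were -0.34, -0.31 and -0.54 at 6 h, and 0.30, 0.15 and -0.08 at 24 h. The part of depth and GC in the levels of these 3 genes was not tested, and the M512 libraries with Sorafenib, where they were highest, held 5720660, 6199321 and 8574340 counts against 7585221, 4939876 and 6973564 in MC with Sorafenib.

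The genes most like APOM over the 18 libraries of 24 h, among 8179 genes with a mean of at least 10 CPM, were GDPD5 (r = 0.898), C2orf72 (0.893) and HSD17B2 (0.888). For APOH they were PON2 (0.972), SCD (0.964) and DDI2 (0.961), a list made in the same way. These correlations include the differences between groups.

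Other genes of lipoprotein metabolism were counted from 4 lists. Of 14 further apolipoproteins and particle proteins 7 were tested, and under Sorafenib 0 were called in MC, 1 was lower in M222 and 2 were lower in M512. Of all genes, 0.793%, 1.56% and 4.62% were lower in MC, M222 and M512, and 1.8% were higher in MC. SAA4, a constitutive serum amyloid A of high density lipoprotein, was lower in M222 (log2 -1.22, edgeR, adjusted p 0.0449). In M512, APOA5, which promotes triglyceride clearance, fell (log2 -1.88, adjusted p 0.0196), as did APOL2 (log2 -1.35, adjusted p 0.0117). APOL2 was higher in M512 than in MC with DMSO (log2 1.55, adjusted p 0.0354), the direction that APOM had in both contrasts, which share the M512 libraries with DMSO. APOL6 was lower in M512 than in MC with Sorafenib (log2 -1.51, adjusted p 0.0228).

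Of 13 genes of particle assembly and secretion, all tested, 0 rose under Sorafenib at 24 h. Of all genes 1.8%, 2.82% and 5.34% rose in MC, M222 and M512, so few calls were to be had among 13. Lower calls were 1 of 13 in MC (0.793% of all genes), 0 in M222 (1.56%) and 3 in M512 (4.62%). DGAT2, which makes triglyceride, fell in MC (log2 -0.98, edgeR, adjusted p 0.00804) and in M512 (-0.81, 0.0123). ABCA1, which lipidates APOA1, fell in M512 (-1.20, 0.00381), as did the sorting receptor gene SORT1 (-0.77, 0.0329). The median of the list was -0.01 in MC, -0.16 in M222 and -0.28 in M512, nearer to that of all genes than the median of the 9 genes was.

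From the list of lipoprotein receptors and remodelling, LIPC, which encodes hepatic lipase, fell in MC (log2 -1.04, edgeR, adjusted p 0.0402) and in M512 (log2 -1.34, adjusted p 0.00243).

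Of 21 genes for transcription factors known to act on apolipoprotein genes, 20 were tested at 6 h and 21 at 24 h, and both directions were found. CEBPB rose in MC (log2 2.16, edgeR, adjusted p 0.000907), in M222 (1.95, 0.00179) and in M512 (1.74, 0.00173). FOXA2 rose in I200c at 6 h (1.01, 0.000605), as did NR2F2 (0.77, 0.0388), and FOXA2 rose at 24 h in M222 (1.04, 0.00306) and in M512 (0.89, 0.0042). HNF4A, a main activator of the liver apolipoprotein genes, fell in M512 (-1.40, 0.000145) and in M222 (-0.86, 0.0202). The values of HNF4A in M222 and of FOXA2 in M512 were chosen after they were seen. PPARA (-1.69, 0.00103) and NR0B2 (-1.21, 0.00243) were lower in M512 as well. In M222, FOXA3 (-1.35, 0.0146) and NR0B2 (-1.15, 0.00754) fell. The counts were 1 higher and 0 lower in MC (1.8% and 0.793% of all genes), 2 higher and 3 lower in M222 (2.82% and 1.56%), and 3 higher and 4 lower in M512 (5.34% and 4.62%). The M512 mimic also went with less PPARA than the control under Sorafenib (-1.72, 0.01). Whether the changes of these factors have a part in those of the apolipoprotein genes was not tested.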

How the data were processed

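Levels were analysed in 30 HepG2 libraries made with the QuantSeq 3′ FWD kit. Per the labels and the methods of the study, reads were trimmed and mapped to GRCh38 with STAR, and the authors deposited the raw HTSeq counts per gene; versions, annotation release and strand setting are not given in the sources used here. A second deposited table, counts divided by 1 size factor per library, was not used. The 92 lines naming no gene (3 counts) were left out, and 56104 identifiers had a symbol. Tests used edgeR 4.0.16 under R 4.3.3 and its quasi-likelihood F statistic on the counts (TMM scaling, filterByExpr, 1 coefficient per group, two-sided, Benjamini-Hochberg over all genes, call under 0.05), with the 12 libraries of 6 h, the 18 of 24 h and the 12 of the transfection controls fitted apart (12738, 13244 and 12500 genes). The biological coefficient of variation was 0.241, 0.356 and 0.259. The script was tested on simulated counts. The share of genes recovered at an absolute log2 fold change of 1 was 59.4% for Sorafenib in I200c and 20.9% in M512. At 1.5 it was 74.5% and 51.5%. Alternatives were DESeq2 1.42.0, total-count scaling, no filter, a replicate block, fits of 6 libraries, and leaving out libraries. Limits from counts cover counting error only; PCR copies are not independent molecules. Replicates differed by more than counting error in all 30 pairs (chi-square per degree of freedom 4.54 to 66.2). Fold changes and adjusted p are given for called pairs and for APOM in contrasts with M512; of each list at most 4 called genes per contrast are named; pairs outside this were chosen after their values were seen. The genes and lists were chosen with earlier results of these data known. Some results of the list of receptors and remodelling are not reported here. Same-numbered libraries deviated together in M222 against MC with DMSO (r 0.188 to 0.202 in the 3 pairs); the block changed no call there (APOH -1.16, edgeR adjusted p 0.0664).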

Additional observations from a re-analysis of the deposited data

How the results depend on the processing

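The called fold changes, those of APOM in M512 against MC and those of APOH in M222 against MC kept their sign under every alternative run, while the number called moved. Without the filter on low counts the number called under Sorafenib was 1 in I200c, 4 in MC, 5 in M222 and 7 in M512. Over all genes it was 519 of 22799 in I200c, and 684, 861 and 1427 of 23336 in MC, M222 and M512. For M222 against MC it was 1 with DMSO and 1 with Sorafenib (47 and 46 of all genes). For M512 against MC with Sorafenib it was 2 (169 of all genes), and for its mean over treatments 2 (566). For the M512 interaction it was 1 (28), and for the time interaction 4 (386 of 22582). With DESeq2 the number called was 4 in MC and 5 in M222 (731 and 1035 of all 13244 genes). It was 1 and 1 for M222 against MC (31 and 28 of all genes), and 2 for M512 against MC with Sorafenib (224). For the M512 interaction it was 1 (12), for the M512 mean 1 (648) and for time 2 (262 of 12500). With total counts the number called was 3 in MC and 5 in M222 (347 and 626 of 13244 genes). This scaling moved the median of all genes to -0.13 in M512 against MC with Sorafenib and to -0.10 in the M512 interaction. Fitting the 6 libraries of MC alone gave 3 (218 of 12037 genes). Without the libraries numbered 2, chosen after seeing the data, the number called was 3 in MC (600 of 13914 genes). It was 1 and 1 for M222 against MC (20 and 32 of all genes), and 0 for M512 against MC with DMSO (47).

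With the replicate block the number called was 3 in MC and 5 in M222 (470 and 748 of 13244 genes). It was 1 for M222 against MC with Sorafenib (APOH, log2 -1.29, edgeR adjusted p 0.0401), where 7 of all genes were called. It was 1 for M512 against MC with Sorafenib (89 of all genes) and 1 for the M512 mean (450). No other count of the members moved by over 1.5 times. Apart from M222 against MC with DMSO, the 3 same-numbered pairs were not all above a correlation of 0.1 (r -0.144 to 0.276). All 3 still correlated best with their own number in M222 with Sorafenib against DMSO and in M512 against MC with Sorafenib, and whether equal numbers mark a shared day is not given in the sources used here.

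With 1 library left out the count ranged from 0 to 2 in MC, 0 to 4 in M222 and 3 to 4 in M512, from 0 to 1 for M222 against MC with Sorafenib, M512 against MC with DMSO and the M512 mean, and from 0 to 3 for time. Calls over all genes in these fits ranged from 112 to 602 in MC, 204 to 734 in M222 and 760 to 1232 in M512. For M222 against MC with Sorafenib they ranged from 0 to 28, and for M512 against MC with DMSO from 18 to 44. They ranged from 163 to 479 for the M512 mean and from 0 to 284 for time. In the fits of 6 libraries MTTP in M222 (adjusted p 0.0749) and APOC3 in M512 (0.105) were not called. The cause of these differences was not tested. Genes of the 4 lists were not recomputed under the alternatives. With 3 replicates a group, a call missed here does not show that a level was the same, and at the lowest depth a level under 0.762 CPM cannot be told from 0.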
